A study of Mus musculus with 12 samples.

Results

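Liver of progeroid knock-in mice on a control diet was set against liver of wild-type mice on a methionine-restricted diet, to find the genes whose levels separate these conditions and the genes that sit at the same level in both. The comparison uses 6 of the 12 arrays of the study. The KI_CD group holds 3 arrays from mice homozygous for the Lmna G609G knock-in allele (Lmna G609G/G609G KI) on the control diet (CD). The WT_MR group holds 3 arrays from wild-type mice on the methionine-restricted diet (MR). The other 6 arrays, 3 of knock-in mice on the restricted diet (KI_MR) and 3 of wild-type mice on the control diet (WT_CD), entered the same fit and are given beside the results. All mice were C57BL/6N males of 110 days, born to heterozygous crosses, that started their diet at 7 weeks of age and were killed after 6 hours of fasting. They were caged apart by genotype, and all groups were given their diet as solid and crushed pellets combined. Genotype and diet both differ between KI_CD and WT_MR, so their parts in a difference cannot be told apart in this contrast alone.

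The G609G change in Lmna activates a cryptic splice site and gives progerin, a shortened lamin A that stays farnesylated and disturbs the nuclear lamina, as in Hutchinson-Gilford progeria. The knock-in is carried in every cell of the animal and not in hepatocytes alone, so a difference in liver cannot be traced to the mutation in hepatocytes. Methionine restriction lowers the supply of the amino acid from which S-adenosylmethionine, cysteine, glutathione and taurine are made, and is known to switch on the amino acid response through the transcription factor ATF4 and to change lipid metabolism in rodent liver. Liver is also the main site of cholesterol synthesis, which SREBP2 switches on when sterols in the cell run low.

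The arrays were of the Affymetrix Mouse Gene 1.0 ST type, and levels are given as log2 of the deposited intensities for 19938 genes, with 1 probe set per gene. Differences are KI_CD minus WT_MR on the log2 scale ± SE, from 1 limma fit over all genes and all 12 arrays. A gene passed the threshold at a Benjamini-Hochberg adjusted p under 0.05. Whether the 3 arrays of a group are 3 animals is not stated, so the p-values speak of the spread between these arrays, which may be technical. Median intensities lay between 82 and 90 units on the 12 arrays, and precision is set by having 3 arrays a group. KI_CD replicate 1 stood apart from the rest in correlation, but was not the only array that moved the results. It correlated at 0.986 on average with the arrays of its own group, against 0.989 to 0.994 for the other 11 arrays. Without it the medians of several lists moved: the transporters from -0.11 to 0.11, bile acid synthesis from -0.04 to 0.20, growth hormone signalling from 0.05 to 0.23, gluconeogenesis and insulin signalling from 0.12 to 0.26, nuclear envelope from 0.12 to 0.05, and the stellate cell and fibroblast markers from 0.17 to -0.02. In bulk tissue, fewer cells of a type and less RNA per cell cannot be told apart. The 8 measured hepatocyte markers summed to between 91877 and 96079 intensity units in KI_CD and between 84909 and 89546 in WT_MR, and 7 of the 8 sat at the same level by the interval test given further on. The summed stellate cell and fibroblast markers ranged from 6622 to 10327 units in KI_CD and from 5770 to 6392 in WT_MR. Cholangiocyte and progenitor markers ranged from 433 to 2557 units in KI_CD and from 423 to 453 in WT_MR, and macrophage markers from 7012 to 9348 units in KI_CD and from 7185 to 12801 in WT_MR. No marker of any of the 12 cell type lists passed the threshold, and the part of these markers in the results was not tested. Lmna itself had levels of 8.37, 7.85 and 7.79 in KI_CD, against 7.63, 7.56 and 7.45 in WT_MR, a difference of 0.46 ± 0.14 that did not pass (limma adjusted p = 0.163). The groups did not overlap, but a gene-level probe set does not tell lamin A from progerin and therefore checks nothing about the genotype.

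The livers differed in 147 genes (0.737% of those tested). Of these, 90 were higher (0.451%) and 57 were lower (0.286%) in KI_CD than in WT_MR. The lower genes showed the larger differences, with a median of -0.98 against 0.56 for the higher genes. Of 40 genes with at least a 2-fold difference, 27 were lower and 13 higher. Genes lower in KI_CD included enzymes of taurine and cholesterol synthesis, targets of the amino acid response and drug-metabolising enzymes. The higher genes included those of secreted plasma proteins such as F11 and C6, of the receptor Adgrf1 and of the matrix enzyme Sulf2. Across all genes the median difference was -0.03 and 41.7% of genes lay above 0. All 147 genes had no overlap between the 3 KI_CD and the 3 WT_MR arrays, whereas 13.8% of all genes had none. The 147 were chosen by a small p on these same arrays, so their lack of overlap follows largely from the choice. With no adjustment, 2611 genes (13.1%) had p under 0.05. The count rested on single arrays: it was 326 without KI_CD replicate 1, 47 without replicate 2 and 17 without replicate 3, and 28, 11 and 299 without WT_MR replicates 1, 2 and 3. In each of these fits all 147 genes kept the sign of their difference, which had to hold because their groups do not overlap. The calls of 8 genes held whichever of the 12 arrays was dropped. These were Csad, Aldh1l2 and Dnah11, which were lower in KI_CD, and Adgrf1, Itih5, Slc13a5, Cdc14a and Rbm3, which were higher.

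**Figure D1:**
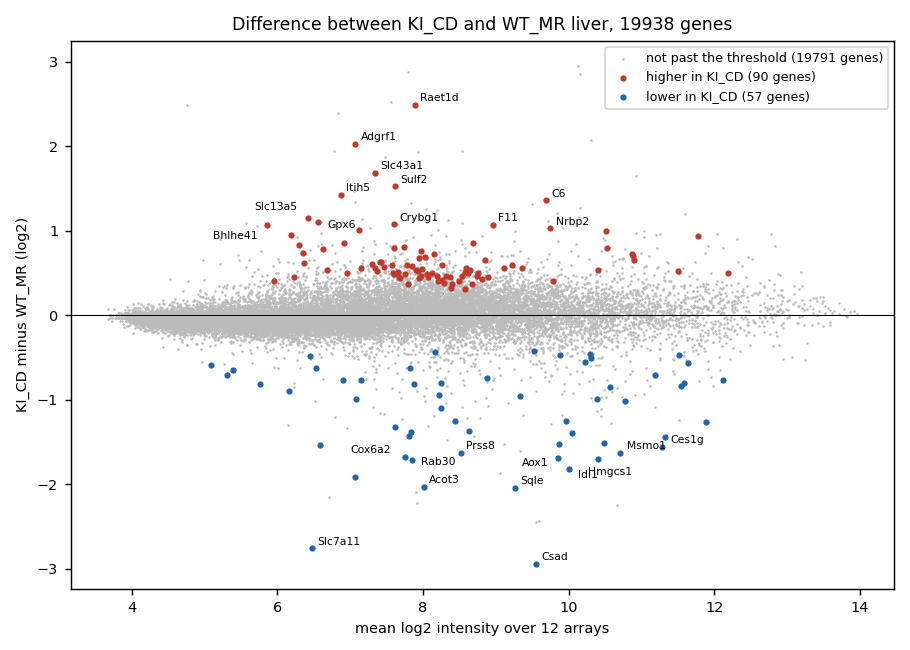
Difference between KI_CD and WT_MR (log2, vertical axis) against the mean log2 intensity over the 12 arrays (horizontal axis) for 19938 genes, with the 90 genes higher in KI_CD in red, the 57 lower in blue and the other 19791 in grey. The 12 largest differences in each direction, without predicted loci, are named, from Csad at -2.94 to Raet1d at 2.49.

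The gene that separated the groups most clearly was Csad, which encodes cysteine sulfinic acid decarboxylase, the enzyme that commits cysteine sulfinate to hypotaurine and taurine. Its levels were 7.78, 8.49 and 7.69 in KI_CD, against 10.85, 11.20 and 10.71 in WT_MR. All KI_CD arrays lay more than 2 log2 units below all WT_MR arrays. Csad was 7.66-fold lower in KI_CD (-2.94 ± 0.20, limma adjusted p = 0.00023), the smallest adjusted p of the comparison. In KI_MR its levels were 10.43, 10.32 and 10.73 and in WT_CD 8.80, 8.73 and 8.91. Its level was higher in WT_MR than in WT_CD by 2.11 ± 0.20 (limma adjusted p = 0.00135), while the difference between KI_CD and WT_CD was -0.83 ± 0.20 (limma adjusted p = 0.178). None of the other 10 measured genes of taurine and cysteine catabolism passed, and their median with Csad was 0.07. Cdo1, the cysteine dioxygenase one step before Csad, had levels of 12.18, 12.77 and 12.84 in KI_CD, against 12.27, 12.32 and 12.41 in WT_MR. The taurine transporter gene Slc6a6 (0.11), Baat, which joins taurine to bile acids (0.23), and Ado, the cysteamine dioxygenase (0.07), sat at the same level.

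Genes of the amino acid response formed a second group of lower genes. This response raises ATF4, which binds C/EBP-ATF composite elements (CAREs) in its target genes. Of 28 measured members 4 passed and were lower in KI_CD (0.286% of all genes were), 0 were higher, 21 lay below 0 and the median was -0.35. The promoter windows of 3 genes of this group, Slc7a11, Asns and Pck2, held the letters TGATGNAA of a CARE on either strand, and the stretches are shown with these letters in capitals, since these genes lay below 0 together. Each is printed in the 5′ to 3′ direction of its gene, from RefSeq sequence of GRCm38.p6.
Slc7a11 (chr3:50443614-50443703, minus strand): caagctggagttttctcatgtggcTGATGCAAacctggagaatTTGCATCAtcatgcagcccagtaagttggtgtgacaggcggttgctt
Asns (chr6:7693210-7693299, minus strand): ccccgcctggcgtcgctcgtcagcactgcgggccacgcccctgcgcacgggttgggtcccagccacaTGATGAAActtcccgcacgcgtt
Pck2 (chr14:55540146-55540265, plus strand): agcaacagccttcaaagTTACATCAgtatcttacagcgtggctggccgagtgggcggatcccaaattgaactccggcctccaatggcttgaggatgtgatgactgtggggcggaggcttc
Of all 32851 windows from 250 bases before to 50 bases after a gene's start, 3.97% held these letters. Among the 4 genes past the threshold and Asns, windows were found for 4, of which 3 held the letters, and Slc7a11 held the letters once on each strand. Asns did not itself pass (limma adjusted p = 0.0666) and was added to the group. A match of letters is not a bound site.

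Slc7a11, the cystine importer xCT, had levels of 5.81, 4.91 and 4.86 in KI_CD, against 8.46, 6.97 and 8.41 in WT_MR. The groups stood apart, with the highest KI_CD array below the lowest WT_MR array, and KI_MR, at 7.30, 7.85 and 7.81, lay with WT_MR rather than with WT_CD, at 5.21, 5.25 and 4.95. The difference was -2.76 ± 0.37 (limma adjusted p = 0.0135). The KI_CD mean lay below the lower quartile of gene levels, and with dim arrays raised to that quartile the gene was at least 5.02-fold lower in KI_CD. Aldh1l2, the mitochondrial formyltetrahydrofolate dehydrogenase, had levels of 5.93, 5.70 and 5.81 in KI_CD, against 7.29, 7.21 and 7.54 in WT_MR (-1.53 ± 0.17, limma adjusted p = 0.00578). The 3 KI_CD arrays spanned less than 0.3 log2 units and lay at the WT_CD levels of 5.93, 5.81 and 5.67. Pck2, the mitochondrial phosphoenolpyruvate carboxykinase, was lower in KI_CD by less (7.88, 7.48 and 7.24 in KI_CD, against 8.40, 8.40 and 8.24 in WT_MR, a difference of -0.82 ± 0.14, limma adjusted p = 0.0264). Adm2, which encodes the peptide hormone adrenomedullin 2, had levels of 6.78, 6.79 and 6.54 in KI_CD, against 7.26, 7.58 and 7.57 in WT_MR (-0.76 ± 0.12, limma adjusted p = 0.0193).

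Asns, the asparagine synthetase and a textbook target of this response, showed how far KI_CD replicate 1 departed from its group. Its levels were 11.11, 8.57 and 9.11 in KI_CD, against 12.10, 11.63 and 11.79 in WT_MR, where the first KI_CD array lay near the WT_MR arrays and the other 2 did not. The difference was -2.24 ± 0.48 and did not pass with all arrays (limma adjusted p = 0.0666). Without KI_CD replicate 1 it was -2.998 (limma adjusted p = 0.000184). The serine synthesis enzyme genes Psat1 (8.21, 6.13 and 6.15 in KI_CD, against 9.06, 8.76 and 9.32 in WT_MR, limma adjusted p = 0.0553) and Phgdh (6.95, 7.28 and 6.59, against 8.41, 7.97 and 7.94, limma adjusted p = 0.0835) missed the threshold without overlap between the groups. Psat1 also had its highest KI_CD level on replicate 1. On that array the stress genes Ddit3 (9.11, against 6.92 and 6.88 on the other KI_CD arrays), Trib3 (9.60, against 7.32 and 7.42) and Nupr1 (10.29, against 7.39 and 7.55) stood out too. These 3 genes did not pass, and their WT_MR levels lay between 7.28 and 8.85. Without KI_CD replicate 1, 12 of the 28 members passed, 3 without replicate 2 and 1 without replicate 3; 2 passed without either WT_MR replicate 1 or 2 and 4 without replicate 3. Atf4 itself had levels of 8.70, 7.89 and 8.27 in KI_CD, against 8.48, 8.46 and 8.39 in WT_MR, and its interval (-0.52 to 0.21) lay within 1.5-fold.

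**Figure D2:**
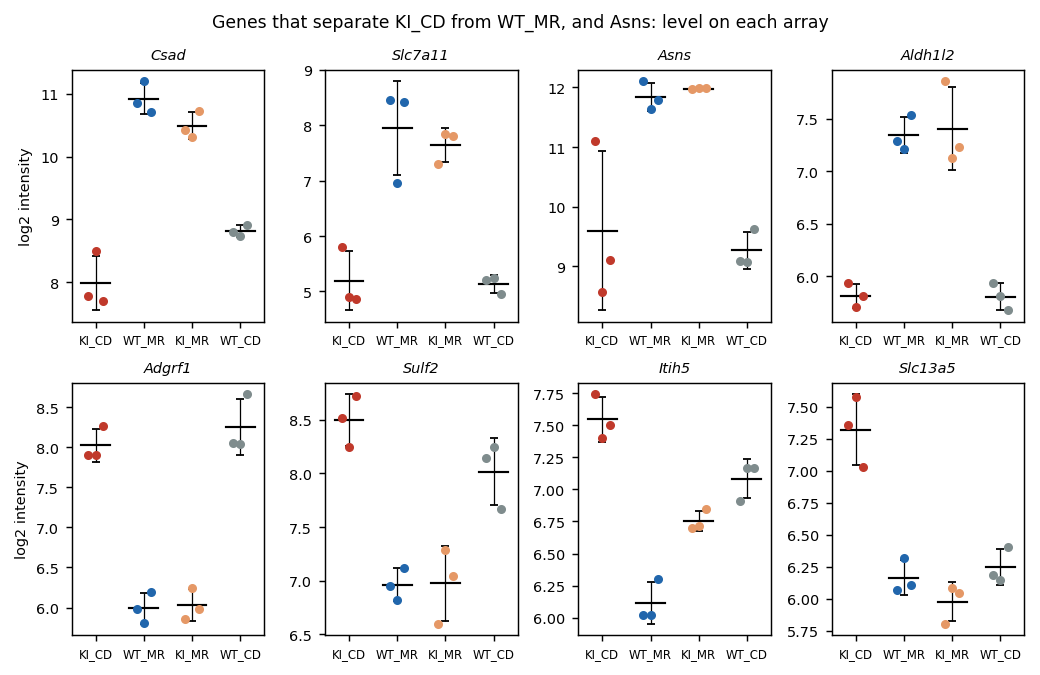
Log2 intensity of 8 genes on each of the 12 arrays in KI_CD, WT_MR, KI_MR and WT_CD, with points for arrays, a bar for the group mean and whiskers for the SD (n = 3 arrays). KI_CD lies below WT_MR without overlap for Csad, Slc7a11, Asns and Aldh1l2, with KI_CD replicate 1 at 11.11 for Asns, and above it for Adgrf1, Sulf2, Itih5 and Slc13a5.

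Cholesterol synthesis was the list with the most genes past the threshold. Of 21 measured members, 8 were lower in KI_CD (against 0.286% of all genes) and 0 higher, 19 lay below 0, 15 had no overlap with KI_CD below WT_MR (against 6.23% of all genes), and the median was -0.89. The 8 genes run from the start of the pathway to its last steps. Hmgcs1, Mvd and Idi1 act in the mevalonate part that ends in isoprenoid units, Fdft1 and Sqle make and oxidise squalene, and Msmo1, Nsdhl and Hsd17b7 trim the sterol ring. Stretches of 3 of their promoter windows are shown because the genes moved together and SREBP2 acts with the CCAAT-binding factor NF-Y at such promoters. Capitals mark CCAAT on either strand and, in Hmgcs1, the letters TCACNCCAC of a sterol regulatory element.
Hmgcs1 (chr13:119690201-119690350, plus strand): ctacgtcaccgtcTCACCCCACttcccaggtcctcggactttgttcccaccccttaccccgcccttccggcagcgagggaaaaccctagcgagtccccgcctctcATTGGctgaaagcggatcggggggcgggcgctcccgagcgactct
Msmo1 (chr8:64733579-64733698, minus strand): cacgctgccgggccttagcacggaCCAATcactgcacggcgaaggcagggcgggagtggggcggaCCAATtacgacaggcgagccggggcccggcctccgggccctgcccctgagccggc
Mvd (chr8:122443423-122443512, minus strand): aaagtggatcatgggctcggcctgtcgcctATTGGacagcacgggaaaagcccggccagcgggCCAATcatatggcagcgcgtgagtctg
These are RefSeq sequences of GRCm38.p6 in the direction of the gene. Windows were found for 6 of the 8 genes, and CCAAT stood in 6 of them, against 37.4% of all windows. The sterol element stood in 1 of the 6, that of Hmgcs1, against 1.24% of all windows. The motifs were not confined to their groups. The CARE letters stood in 1 of these 6 windows, that of Idi1. CCAAT stood in 2 of the 4 windows of the amino acid response group, those of Pck2 and Slc7a11. None of the 3 motifs searched is contained in another.

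Hmgcs1, the cytosolic HMG-CoA synthase, had levels of 10.15, 9.20 and 10.07 in KI_CD, against 11.66, 11.69 and 11.15 in WT_MR, and was 3.23-fold lower in KI_CD (-1.69 ± 0.29, limma adjusted p = 0.0276). Idi1, the isopentenyl diphosphate isomerase, had levels of 9.65, 8.59 and 9.76 in KI_CD, against 11.49, 11.40 and 10.56 in WT_MR (-1.82 ± 0.33, limma adjusted p = 0.0343), and its second probe set gave -1.76. Mvd, the mevalonate diphosphate decarboxylase, had levels of 7.28, 7.24 and 7.43 in KI_CD, against 8.33, 9.09 and 8.65 in WT_MR (-1.38 ± 0.21, limma adjusted p = 0.0193). In these 3 genes the WT_MR arrays stood above all KI_CD arrays by more than 0.7 log2 units. Sqle, the squalene epoxidase and a slow step of the pathway, showed the largest difference of the list, with levels of 8.75, 7.55 and 8.46 in KI_CD, against 10.49, 10.36 and 10.03 in WT_MR (-2.04 ± 0.33, limma adjusted p = 0.0246). Fdft1, the squalene synthase, had the smallest SE of the 8, with levels of 11.19, 11.07 and 11.44 in KI_CD, against 12.07, 12.14 and 11.89 in WT_MR (-0.80 ± 0.11, limma adjusted p = 0.0138; -0.84 in its second probe set). Msmo1, the sterol C4-methyl oxidase, had levels of 10.32, 9.15 and 10.40 in KI_CD, against 11.77, 11.70 and 11.27 in WT_MR. KI_CD replicate 2 was the lowest array of the 6 for these and for Nsdhl. The differences were -1.63 ± 0.30 for Msmo1 (limma adjusted p = 0.0388), -1.51 ± 0.23 for the dehydrogenase gene Nsdhl (limma adjusted p = 0.0193) and -1.25 ± 0.19 for the ketosteroid reductase gene Hsd17b7 (limma adjusted p = 0.0183).

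Members of the pathway that did not pass included Cyp51, the lanosterol demethylase (9.21, 7.88 and 9.37 in KI_CD, against 10.79, 10.88 and 9.96 in WT_MR, limma adjusted p = 0.0554), Pmvk (-1.08), Lss (-1.04) and Dhcr7 (-0.66). Ebp, the sterol isomerase (0.01), Ggps1, which leads away to geranylgeranyl groups (0.05), and Srebf2 (-0.28), which encodes SREBP2 itself, sat at the same level. Insig1, an SREBP target and brake, had levels of 12.11, 11.22 and 12.43 in KI_CD, against 12.25, 12.51 and 11.98 in WT_MR (-0.33 ± 0.28), and these overlapped. The median of the list was -0.22 for KI_CD against WT_CD and 0.63 for WT_MR against WT_CD, with 0 members past the threshold by limma in the first comparison and 1, Fdft1, in the second (0.63 ± 0.11, limma adjusted p = 0.0462). Mvd was also lower in KI_MR than in WT_MR (-1.12 ± 0.21, limma adjusted p = 0.049). The number past the threshold was 9 without KI_CD replicate 1 and 10 without WT_MR replicate 3, but 2 without either KI_CD replicate 2 or 3, 1 without WT_MR replicate 1 and 0 without WT_MR replicate 2. The median stayed between -1.12 and -0.71 in these fits. Of the 8 calls, 0 held when limma was run on just the 6 compared arrays (adjusted p from 0.104 to 0.215), and 1, Fdft1, held with values under 32 units raised to 32 (limma adjusted p = 0.0424, and 0.0568 to 0.105 for the other 7).

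**Figure D3:**
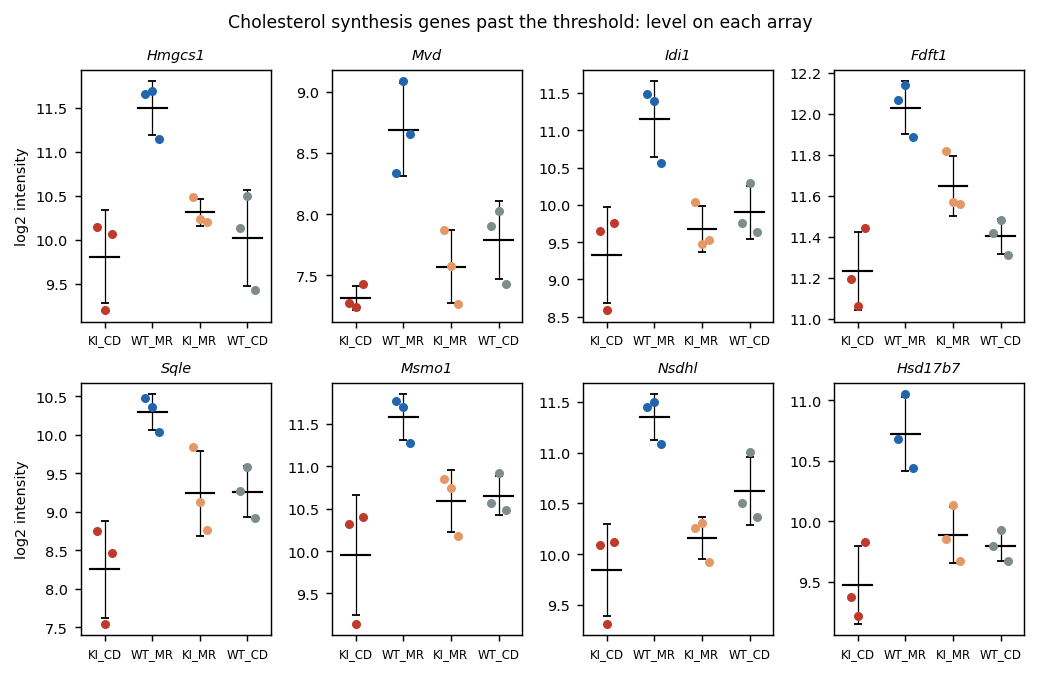
Log2 intensity of the 8 cholesterol synthesis genes past the threshold on each array in KI_CD, WT_MR, KI_MR and WT_CD, with points for arrays, a bar for the mean and whiskers for the SD (n = 3 arrays). In each panel all KI_CD arrays lie below all WT_MR arrays, from 7.28, 7.24 and 7.43 against 8.33, 9.09 and 8.65 for Mvd to 11.19, 11.07 and 11.44 against 12.07, 12.14 and 11.89 for Fdft1.

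Glutathione and detoxification genes under the transcription factor NRF2 lay mostly below 0. Of 20 measured members 2 were lower (0.286% of all genes were) and 0 higher, 18 lay below 0, 13 had no overlap with KI_CD below WT_MR (6.23% of all genes), and the median was -0.55. The carboxylesterase gene Ces1g had levels of 10.64, 10.31 and 10.67 in KI_CD, against 12.12, 12.17 and 11.99 in WT_MR (-1.56 ± 0.23, limma adjusted p = 0.0171). Abcc4, an export pump for bile acids and conjugates on the blood side of hepatocytes, had levels of 7.74, 7.02 and 7.03 in KI_CD, against 8.93, 8.51 and 8.30 in WT_MR (-1.32 ± 0.21, limma adjusted p = 0.0258). Its close relative Abcc3, with a like place and role, was also lower (9.57, 8.87 and 9.20 in KI_CD, against 10.69, 11.04 and 10.45 in WT_MR, a difference of -1.52 ± 0.29, limma adjusted p = 0.0407). Abcc4 was at 7.02 and 7.03 on 2 of the KI_CD arrays, the level of the WT_CD arrays (7.14, 7.09 and 7.04). Nqo1, the quinone reductase most used as a readout of NRF2, had levels of 7.18, 5.88 and 6.62 in KI_CD, against 7.66, 7.70 and 7.94 in WT_MR, and missed the threshold (-1.21 ± 0.27, limma adjusted p = 0.0804). WT_CD lay below both for this gene, at 5.64, 5.59 and 5.43. Gclc, the catalytic subunit of the enzyme that starts glutathione synthesis (-0.72 ± 0.19), Gstm4 (-1.09 ± 0.27) and Gpx4 (-0.59 ± 0.15) did not pass and had no overlap, while the partner subunit gene Gclm sat at the same level (-0.30). Glutathione transferase genes of the Gstm family are close paralogs and can share signal on such arrays. The list had 7 genes past the threshold without KI_CD replicate 1, 2 without WT_MR replicate 3 and 0 without each of the other 4 compared arrays. Abcc3 and Abcc4 were the 2 of 15 bile acid and organic anion transporter genes past the threshold, both lower (0.286% of all genes were). This count was 4 without KI_CD replicate 1, 2 without WT_MR replicate 3 and 0 without each of the other 4 compared arrays.

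Among the other large differences, Aox1, an aldehyde oxidase that handles drugs and vitamin A aldehyde, had levels of 9.51, 8.92 and 8.72 in KI_CD, against 10.68, 10.74 and 10.80 in WT_MR. It was 3.23-fold lower in KI_CD (-1.69 ± 0.20, limma adjusted p = 0.00906) and passed with 11 of the 12 arrays left out in turn. KI_MR was near WT_MR for Aox1, at 10.52, 9.84 and 10.30, and WT_CD near KI_CD, at 9.55, 9.47 and 9.27. Cox6a2, a subunit of cytochrome oxidase otherwise known from heart and skeletal muscle, had levels of 7.13, 7.01 and 6.74 in KI_CD, against 8.52, 8.54 and 8.84 in WT_MR (-1.67 ± 0.28, limma adjusted p = 0.0264). The summed muscle markers ranged from 637 to 744 units in KI_CD and from 663 to 799 in WT_MR, and their part in this difference was not tested. Rab30, a small GTPase of the Golgi, ranged from 6.85 to 7.86 in KI_CD and from 8.79 to 9.23 in WT_MR (-1.71 ± 0.30, limma adjusted p = 0.0302). Prss8, the membrane serine protease prostasin, had levels of 8.81, 7.67 and 7.42 in KI_CD, against 9.74, 9.59 and 9.46 in WT_MR (-1.62 ± 0.31, limma adjusted p = 0.0428), with KI_CD replicate 1 the nearest to WT_MR. Chosen after their values were seen, the conjugation genes Ugdh (-1.44 ± 0.28) and Ephx1 (-1.26 ± 0.25), which make glucuronic acid donors and hydrolyse epoxides, and the bilirubin-pathway gene Blvrb (-1.01 ± 0.14) were lower too (limma adjusted p = 0.0485, 0.0479 and 0.0138).

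Fatty acid oxidation genes and targets of the fatty acid sensor PPARA lay mostly below 0, in 24 of 28 members, with a median of -0.47. Of these members, 7 had no overlap with KI_CD below WT_MR (6.23% of all genes), and 15 had an unadjusted p under 0.05 (13.1%). Past the threshold, 1 was lower (0.286% of all genes were) and 0 were higher. Only Acot3, a peroxisomal acyl-CoA thioesterase, passed, with levels of 7.12, 6.71 and 7.43 in KI_CD, against 9.03, 10.10 and 8.22 in WT_MR (-2.03 ± 0.39, limma adjusted p = 0.0447). The WT_MR arrays varied among themselves by almost 1.9 log2 units but stayed above all KI_CD arrays. The related gene Acot4 had levels of 9.56, 8.94 and 9.63 in KI_CD, against 10.70, 11.13 and 9.84 in WT_MR (-1.18 ± 0.29, limma adjusted p = 0.101), and these are close paralogs that can share signal. Hadhb, a subunit of the mitochondrial trifunctional protein (-0.54 ± 0.14), and the carnitine carrier gene Slc25a20 (-0.60 ± 0.16) did not pass. Ppara itself (-0.09), Cpt1a, the gate of fatty acid entry into mitochondria (0.17), and Acadm (-0.29) sat at the same level. Acot3 kept its call with 1 of the 12 arrays left out in turn, that of WT_MR replicate 3, with adjusted p between 0.0548 and 0.154 without each of the other 5 compared arrays. The number of members of this list past the threshold was 4 without KI_CD replicate 1, 2 without WT_MR replicate 3 and 0 without each of the other 4 compared arrays.

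Among the genes higher in KI_CD, Raet1d differed most. It encodes a stress-induced ligand of the natural killer cell receptor NKG2D and belongs to a family of near-identical copies whose signals such arrays may not separate. Its levels were 10.27, 8.46 and 9.30 in KI_CD, against 6.69, 6.78 and 7.09 in WT_MR, so the KI_CD arrays varied widely but all lay above the WT_MR arrays (2.49 ± 0.41, limma adjusted p = 0.026). Adgrf1, an adhesion G protein-coupled receptor, had tight groups, with levels of 7.90, 7.91 and 8.26 in KI_CD, against 5.98, 5.81 and 6.19 in WT_MR. It was 4.09-fold higher in KI_CD (2.03 ± 0.18, limma adjusted p = 0.00116). KI_MR lay at the WT_MR level (5.86, 6.25 and 5.98) and WT_CD at the KI_CD level (8.06, 8.04 and 8.66). The same order was seen for Sulf2, an extracellular enzyme that removes 6-O-sulfate from heparan sulfate, with levels of 8.52, 8.24 and 8.73 in KI_CD, against 6.95, 6.82 and 7.12 in WT_MR (1.53 ± 0.20, limma adjusted p = 0.0123). Itih5, a secreted protein that stabilises hyaluronan in the matrix, had levels of 7.74, 7.40 and 7.50 in KI_CD, against 6.02, 6.02 and 6.30 in WT_MR (1.43 ± 0.11, limma adjusted p = 0.000622). For Itih5 the KI_MR arrays (6.70, 6.71 and 6.85) and WT_CD arrays (6.91, 7.17 and 7.17) fell in between.

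Of the transporter genes named by size, Slc7a11 was lower, and Slc13a5 and Slc43a1 were higher. Slc13a5, the sodium-coupled citrate transporter of the hepatocyte plasma membrane, had levels of 7.36, 7.58 and 7.03 in KI_CD, against 6.07, 6.32 and 6.11 in WT_MR (1.16 ± 0.14, limma adjusted p = 0.00906). All other groups lay low, with KI_MR at 5.81, 6.09 and 6.04 and WT_CD at 6.19, 6.15 and 6.41. Its level in KI_CD exceeded that in WT_CD by 1.07 ± 0.14 (limma adjusted p = 0.0176), and in KI_MR it was lower than in KI_CD (-1.34 ± 0.14, limma adjusted p = 0.00414). Slc43a1, a carrier of large neutral amino acids including methionine and leucine, had levels of 8.04, 8.24 and 8.54 in KI_CD, against 6.85, 6.86 and 6.04 in WT_MR (1.69 ± 0.27, limma adjusted p = 0.0246). Picked after their values were seen, the metal carrier genes Slc39a14 (0.70 ± 0.13) and Slc39a4 (-1.25 ± 0.21) passed in opposite directions (limma adjusted p = 0.0309 and 0.0266). Gpx6, a glutathione peroxidase known from the olfactory epithelium, had levels of 7.26, 7.08 and 7.85 in KI_CD, against 6.19, 6.39 and 6.29 in WT_MR (1.10 ± 0.18, limma adjusted p = 0.0258). Nrbp2, a pseudokinase-like nuclear receptor binding protein, was higher in KI_CD (9.84, 10.55 and 10.10, against 9.41, 9.06 and 8.93 in WT_MR; 1.03 ± 0.16, limma adjusted p = 0.0231), and in KI_MR it lay at the KI_CD level (10.24, 10.16 and 10.15). Crybg1 passed in the probe set used, with levels of 8.23, 8.18 and 8.16 in KI_CD, against 7.00, 7.07 and 7.26 in WT_MR (1.08 ± 0.19, limma adjusted p = 0.0276), but its second probe set gave 0.05. Bhlhe41, a repressor in the circadian clock, had levels of 5.95, 6.36 and 6.71 in KI_CD, against 5.39, 5.29 and 5.13 in WT_MR (1.07 ± 0.17, limma adjusted p = 0.0237). WT_MR lay below the lower quartile of gene levels there, so the gene was at least 1.69-fold higher in KI_CD. It was the only one of 18 clock genes past the threshold (0.451% of all genes were higher), and 2 had an unadjusted p under 0.05 (13.1%).

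Genes of plasma proteins made by hepatocytes lay mostly above 0. Of 30 measured complement and coagulation genes 3 passed, all higher (0.451% of all genes were), 29 lay above 0 and the median was 0.30. C6, a component of the complement membrane attack complex with higher levels in male than in female mouse liver, had levels of 9.88, 10.24 and 10.25 in KI_CD, against 8.72, 8.20 and 9.36 in WT_MR (1.36 ± 0.27, limma adjusted p = 0.0485). The WT_CD arrays, at 11.36, 11.03 and 11.84, were above both. F11, the clotting factor XI gene, had levels of 9.44, 9.04 and 9.36 in KI_CD, against 8.19, 7.99 and 8.44 in WT_MR (1.07 ± 0.15, limma adjusted p = 0.0136), and WT_CD was again above both at 9.95, 9.84 and 9.65. Masp1, a protease that starts the lectin arm of complement, differed by less but with a smaller error, with levels of 11.65, 11.75 and 11.68 in KI_CD, against 11.16, 11.11 and 11.23 in WT_MR (0.52 ± 0.07, limma adjusted p = 0.013). The number past the threshold was 5 without KI_CD replicate 1 and 4 without WT_MR replicate 3, but 2 without KI_CD replicate 2 and 0 without KI_CD replicate 3, WT_MR replicate 1 or WT_MR replicate 2.

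Acute phase genes, which hepatocytes make during inflammation, lay above 0 in 21 of 26 members, with a median of 0.35. By limma 0 passed, and 13 had an unadjusted p under 0.05, as did 13.1% of all genes. Orm3, an orosomucoid, had levels of 6.59, 9.23 and 9.26 in KI_CD, against 5.62, 5.91 and 6.38 in WT_MR (2.39 ± 0.58, limma adjusted p = 0.0987), with KI_CD replicate 1 far below the other two. Serpina3n had levels of 13.13, 13.50 and 12.99 in KI_CD, against 12.34, 12.17 and 12.65 in WT_MR (0.82 ± 0.20, limma adjusted p = 0.103). The interval for Cp, ceruloplasmin, lay within 1.5-fold (0.31 ± 0.09). Genes of the urea cycle and of amino acid breakdown lay above 0 in 19 of 20 members, with a median of 0.35, 11 with KI_CD above WT_MR without overlap (7.56% of all genes), 14 at an unadjusted p under 0.05 (13.1% of all genes) and 0 past the threshold by limma. Uroc1 and Hal act in histidine breakdown. Uroc1 had levels of 10.54, 10.59 and 10.85 in KI_CD, against 10.15, 10.20 and 10.14 in WT_MR (0.49 ± 0.10, limma adjusted p = 0.0521), and Hal 12.35, 12.53 and 12.57, against 11.68, 11.46 and 11.93 (0.79 ± 0.17, limma adjusted p = 0.062). Gpt, alanine aminotransferase, differed by 0.52 ± 0.11 (limma adjusted p = 0.0666). Beyond these lists, and chosen after their values were seen, Ftcd, the last enzyme of histidine breakdown (0.73 ± 0.10, limma adjusted p = 0.0138), and Agxt, the peroxisomal alanine-glyoxylate aminotransferase (11.17 ± 0.05 in KI_CD and 10.18 ± 0.30 in WT_MR, mean ± SD, n = 3 each, limma adjusted p = 0.026), passed and were higher in KI_CD. The hepatocyte markers also lay above 0, in 8 of 8 with a median of 0.10, and their part in these values was not tested.

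Genes of temperature and protein stress passed in both directions. Rbm3, an RNA-binding protein that cold induces, had levels of 11.20, 11.08 and 11.19 in KI_CD, against 10.61, 10.38 and 10.49 in WT_MR (0.66 ± 0.08, limma adjusted p = 0.01), and its other probe sets gave 0.77 and 0.71. Both knock-in groups lay above both wild-type groups, with KI_MR at 11.59, 11.43 and 11.53 and WT_CD at 10.51, 10.48 and 10.34. Cirbp, the related cold-inducible gene, had levels of 8.70, 8.78 and 9.04 in KI_CD, against 7.78, 8.04 and 8.30 in WT_MR, and did not pass (0.80 ± 0.17, limma adjusted p = 0.0666). The heat-induced chaperone gene Hsph1 was lower in KI_CD (7.72, 7.79 and 7.69, against 9.29, 8.56 and 8.64 in WT_MR; -1.10 ± 0.21, limma adjusted p = 0.0423), a call that held with 3 of 12 arrays left out in turn. Hsp90aa1, another heat-induced chaperone gene, had levels of 9.54, 9.57 and 9.75 in KI_CD, against 10.53, 10.32 and 10.44 in WT_MR (-0.81 ± 0.17, limma adjusted p = 0.0666). Chaperone genes of the endoplasmic reticulum, among them Hspa5 (-0.10), Hsp90b1 (0.17) and Calr (0.13), sat at the same level. The 26 members of the list split evenly, with 13 above and 13 below 0, but many differed. Without overlap, 5 lay higher and 7 lower in KI_CD (7.56% and 6.23% of all genes), and 13 had an unadjusted p under 0.05 (13.1%). Rbm3 and Hsph1 were the 2 members past the threshold (0.737% of all genes passed).

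Further genes that passed lie outside the lists and were chosen after their values were seen. Mme, the membrane peptidase neprilysin, had levels of 7.97, 7.77 and 8.36 in KI_CD, against 9.45, 9.47 and 9.28 in WT_MR (-1.37 ± 0.17, limma adjusted p = 0.0104), and Nat8, an acetyltransferase that completes mercapturic acids, had 6.78, 7.36 and 7.59, against 8.23, 8.64 and 9.15 (-1.43 ± 0.24, limma adjusted p = 0.026). For both genes the KI_MR arrays (8.30, 7.86 and 8.33 for Mme and 6.73, 6.95 and 6.56 for Nat8) lay with KI_CD, and the WT_CD arrays (9.17, 8.90 and 8.74 and 8.63, 8.43 and 8.67) with WT_MR. The carboxylesterase genes Ces1f (-0.84 ± 0.15) and Ces2a (-0.95 ± 0.18), paralogs of Ces1g, were lower in KI_CD, as were Aldh1a1, which oxidises retinaldehyde (-0.77 ± 0.12), Maoa, a monoamine oxidase (-0.48 ± 0.08), Hpgd, which inactivates prostaglandins (-0.71 ± 0.14), and Mmab, which makes adenosylcobalamin (-0.94 ± 0.12). Among the higher genes, Fgfr1, a fibroblast growth factor receptor, had levels of 8.43, 7.93 and 7.90 in KI_CD, against 7.22, 7.42 and 7.21 in WT_MR (0.80 ± 0.13, limma adjusted p = 0.0261). Spred1 (0.49 ± 0.09), Spred2 (0.57 ± 0.11, with 0.22 in its second probe set), Nf1 (0.46 ± 0.08) and Rasa3 (0.68 ± 0.11), which restrain Ras signalling, were higher too. So were Msrb3, a methionine sulfoxide reductase (0.54 ± 0.08), Mios, a part of the GATOR complex that passes amino acid signals to mTORC1 (0.50 ± 0.10), and Clu, the secreted chaperone clusterin (0.51 ± 0.09). Most of these genes differed by less than 2-fold, and they kept their calls with between 2 (Spred2 and Hpgd) and 11 (Mme and Mmab) of the 12 arrays left out in turn.

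A few genes tied to position in the liver lobule, growth or senescence also passed. Lgr5, a Wnt-responsive receptor of the hepatocytes around the central vein, had levels of 8.08, 8.11 and 8.37 in KI_CD, against 7.23, 7.30 and 7.61 in WT_MR (0.81 ± 0.14, limma adjusted p = 0.026). It was the only one of 19 pericentral genes to pass (0.451% of all genes were higher), and 5 had an unadjusted p under 0.05 (13.1% of all genes). Axin2 (0.24), Glul (-0.15) and Cyp2e1 (0.09) of the same list sat at the same level. Pigr, the polymeric immunoglobulin receptor, was the only one of 16 periportal genes to pass (0.451% of all genes were higher). Its levels were 11.95, 12.36 and 12.25 in KI_CD, against 10.92, 11.30 and 11.51 in WT_MR (0.94 ± 0.16, limma adjusted p = 0.026). Of the 16 periportal genes, 6 lay higher and 1 lower without overlap (7.56% and 6.23% of all genes). An unadjusted p under 0.05 was reached by 8 of them (13.1% of all genes). Glb1, the lysosomal beta-galactosidase whose activity is used as a marker of senescent cells, had levels of 8.33, 8.52 and 8.60 in KI_CD, against 8.03, 7.88 and 8.13 in WT_MR (0.47 ± 0.09, limma adjusted p = 0.0447). Its WT_CD level was like that in KI_CD (8.39, 8.40 and 8.59). Cdkn2a, the p16 and p19 locus, had levels of 6.63, 6.62 and 6.54 in KI_CD, against 6.78, 6.78 and 6.62 in WT_MR (-0.13 ± 0.07, limma adjusted p = 0.494), so the ranges overlapped. Cdkn1a shares its probe set with another symbol and was not analysed here. Of 24 p53 and senescence genes, Glb1 was the only one past the threshold (0.451% of all genes were higher), and 6 had an unadjusted p under 0.05 (13.1%). The growth arrest genes Gadd45g (1.87 ± 0.53) and Gadd45b (-1.30 ± 0.42) lay on opposite sides of 0. The single calls of the pericentral, senescence and clock lists were lost without KI_CD replicate 2 or 3 or WT_MR replicate 1 or 2. The periportal count was 3 without KI_CD replicate 1, 2 without WT_MR replicate 3 and 0 without each of the other 4 compared arrays.

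The other groups show at which level the separating genes sat when only genotype or only diet differed. Of the 57 genes lower in KI_CD, WT_CD lay between the means of KI_CD and WT_MR in 48 and nearer to KI_CD in 45. All 57 lay above 0 for WT_MR against WT_CD, 17 of them past the threshold (0.211% of all genes were), and 0 were lower in KI_CD than in WT_CD past the threshold by limma (0.0201% of all genes were), with 20 at an unadjusted p under 0.05 and a median of -0.22. For the 90 genes higher in KI_CD, WT_CD lay between the means in 80, nearer to KI_CD in 35 and nearer to WT_MR in 55. Of these 90, 10 were lower in WT_MR than in WT_CD past the threshold (0.115% of all genes), and 2, Slc13a5 and Rbm3, were higher in KI_CD than in WT_CD (0.0602%). At an unadjusted p under 0.05 the order of these counts is the other way: 75 of the 90 differed between KI_CD and WT_CD and 57 between WT_MR and WT_CD, while of the 57 lower genes 52 differed between WT_MR and WT_CD. The genes were chosen on arrays that these contrasts share, so high unadjusted counts follow in part from the choice. The share of all genes at an unadjusted p under 0.05 is not given for these contrasts, so the counts cannot be weighed against it. KI_MR lay nearer to KI_CD for 52 of the higher and 32 of the lower genes. Across all genes, 16 passed between KI_CD and WT_CD (0.0802%) and 65 between WT_MR and WT_CD (0.326%). These contrasts share the KI_CD, WT_MR and WT_CD arrays with the comparison itself, so the positions are given as a description with no test.

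Equal levels were judged by interval, not by a missed threshold. A gene sat at the same level where the 95% interval of its difference lay within 1.5-fold either way and its mean lay above that of the median gene. This held for 7781 of the 9969 genes above the median level (78.1%), which is 39% of all genes. Intervals are per gene and not adjusted. The rule bounds the size of a difference and does not ask for none. A gene with a small difference past the threshold can therefore also meet it. Among listed genes, 217 of the 517 above the median level met the rule. Abundant hepatocyte products met it with narrow intervals: Alb, albumin, had levels of 13.95, 13.91 and 13.95 in KI_CD, against 13.89, 13.81 and 13.94 in WT_MR (-0.08 to 0.19), and Apoe 13.78, 13.81 and 13.85, against 13.80, 13.80 and 13.86 (-0.13 to 0.11). Ttr, transthyretin (0.03), Rbp4, the retinol carrier (-0.01), Apoa1 (0.07), Apoa2 (0.02), Trf, transferrin (0.15), Ahsg, fetuin A (0.06), Fth1, ferritin heavy chain (-0.12), and the translation factor gene Eef1a1 (-0.08) also met it, as did the RNA gene Rn7sk (0.04). These genes lie near the top of the intensity range, and whether their probes were saturated was not tested. Baiap2l1 led by level at 13.96, but its other probe sets averaged 11.87 and 9.87, so that level is uncertain.

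Genes of the methionine cycle sat at the same level about as often as other genes. Of 21 measured genes of the cycle and of transsulfuration, 0 passed by limma (4 at an unadjusted p under 0.05, against 13.1% of all genes), 16 sat at the same level, of 20 above the median level (78.1% of all genes above that level did), and the median was 0.07 (0.18 without KI_CD replicate 1). Mat1a, which makes S-adenosylmethionine in adult liver (0.08), Gnmt, which uses up its surplus (0.07), Cbs (11.87, 12.01 and 11.82 in KI_CD, against 11.55, 11.50 and 11.78 in WT_MR) and Cth (11.87, 12.19 and 12.20, against 12.03, 11.71 and 11.81) were among them. Cbs and Cth turn homocysteine into cysteine. Nnmt, which spends S-adenosylmethionine on nicotinamide, had levels of 11.98, 12.26 and 11.84 in KI_CD, against 10.41, 9.53 and 11.20 in WT_MR; the groups did not overlap but the gene did not pass (1.65 ± 0.49, limma adjusted p = 0.171). Of the growth hormone axis, Igf1 (12.11, 12.25 and 12.37 in KI_CD, against 11.99, 12.07 and 12.19 in WT_MR), the receptor gene Ghr (0.11) and Stat5b (0.10) sat at the same level. Igfbp1, a binding protein that fasting and stress raise, ranged from 10.09 to 12.51 in KI_CD and from 10.04 to 11.19 in WT_MR (0.79 ± 0.52, limma adjusted p = 0.551), too wide for either statement.

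Sex-biased liver genes, whose levels depend on the rhythm of growth hormone, lay away from WT_CD in both groups. Of 18 male-biased genes the median was -0.08 for KI_CD against WT_MR, beside -1.48 for KI_CD against WT_CD and -1.67 for WT_MR against WT_CD. The first of these was 0.33 without KI_CD replicate 1 and 0.06 without WT_MR replicate 3, and lay between -0.22 and -0.13 without each of the other 4 compared arrays. Of 16 female-biased genes the median was -0.36 for KI_CD against WT_MR, beside 0.84 and 1.19. These 3 contrasts share arrays, so the values stand side by side with no test of likeness. A median near 0 does not show that members were alike. At an unadjusted p under 0.05 were 9 of the 18 male-biased and 5 of the 16 female-biased genes (13.1% of all genes). Without overlap, 2 male-biased genes lay higher and 6 lower in KI_CD, and 0 and 5 female-biased genes (7.56% and 6.23% of all genes). Above the median level, 1 of 17 male-biased and 0 of 11 female-biased genes sat at the same level (78.1% of all such genes). Serpina12, which encodes the serpin vaspin, had levels of 5.52, 5.98 and 5.88 in KI_CD, against 5.78, 5.83 and 6.15 in WT_MR, while WT_CD lay at 8.12, 7.50 and 8.63. Cyp2b9, a female-biased cytochrome P450, had levels of 12.98, 12.43 and 12.97 in KI_CD, against 13.13, 13.22 and 12.94 in WT_MR, while WT_CD lay at 7.03, 9.58 and 7.99. Neither gene differed past the threshold between KI_CD and WT_MR (-0.13 ± 0.25 and -0.30 ± 0.47, limma adjusted p = 0.854 and 0.815), but their intervals (-0.67 to 0.41 and -1.32 to 0.72) do not keep within 1.5-fold. C6 and Acot3 were the only members of these lists past the threshold between KI_CD and WT_MR (0.737% of all genes passed). Elovl3, a male-biased fatty acid elongase, lay below WT_MR in KI_CD without overlap (5.25, 7.23 and 7.00, against 7.42, 8.57 and 9.77 in WT_MR) but did not pass (-2.09 ± 0.59, limma adjusted p = 0.141). Hsd3b5, a male-biased steroid-metabolising enzyme, went the other way (5.59, 9.43 and 9.58 in KI_CD, against 5.17, 5.25 and 5.52 in WT_MR; 2.88 ± 0.83, limma adjusted p = 0.152). On KI_CD replicate 1 it lay within 0.1 of the highest WT_MR array, and Slco1a1, a male-biased organic anion transporter, was at 6.30 there against 11.19 and 11.11 on the other KI_CD arrays. Without KI_CD replicate 1, 3 of the 18 male-biased genes passed, 1 without WT_MR replicate 3 and 0 without each of the other 4 compared arrays. By the rule for genes at the same level in KI_CD and WT_MR and at least 1 log2 unit from WT_CD in both, 1 gene was found, the selenium-binding protein gene Selenbp2 (9.30, 9.23 and 9.58 in KI_CD, against 9.52, 9.21 and 9.17 in WT_MR, with WT_CD at 10.39, 9.83 and 10.95), and 0 were found against KI_MR.

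**Figure D4:**
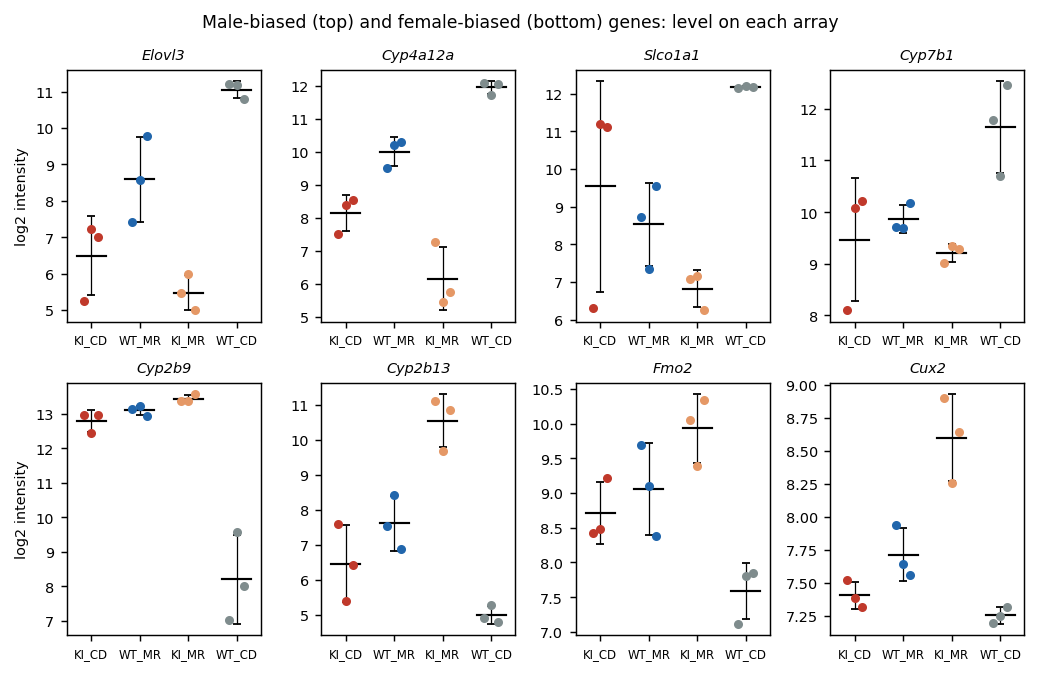
Log2 intensity of 4 male-biased genes (top) and 4 female-biased genes (bottom) on each array in KI_CD, WT_MR, KI_MR and WT_CD, with points for arrays, a bar for the mean and whiskers for the SD (n = 3 arrays). Cyp2b9 lies between 12.43 and 13.22 in KI_CD and WT_MR and between 7.03 and 9.58 in WT_CD, and Slco1a1 shows KI_CD replicate 1 at 6.30 below the other two.

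Bile acid and hormone genes of interest in this model did not pass. Cyp7a1, which makes the first and limiting step from cholesterol to bile acids, had levels of 11.59, 10.87 and 11.33 in KI_CD, against 12.54, 12.07 and 11.68 in WT_MR (-0.83 ± 0.32, limma adjusted p = 0.3). The groups did not overlap, but KI_CD replicate 1 lay within 0.1 of the lowest WT_MR array. Cyp8b1, which sets the share of cholic acid, had levels of 8.20, 8.84 and 8.48 in KI_CD, against 9.58, 10.39 and 10.10 in WT_MR (-1.52 ± 0.61, limma adjusted p = 0.319). Of 14 bile acid synthesis genes 0 passed by limma and 5 had an unadjusted p under 0.05, against 13.1% of all genes. All 14 lay above the median level and 8 sat at the same level, against 78.1% of all genes above that level. Cyp2c70, which makes muricholic acids in mice, came nearest to the threshold (12.68, 12.77 and 12.98 in KI_CD, against 12.18, 11.93 and 12.22 in WT_MR, a difference of 0.70 ± 0.15, limma adjusted p = 0.0666). Fgf21, a hepatic hormone that protein and methionine shortage raise, had levels of 7.97, 6.25 and 6.17 in KI_CD, against 7.81, 8.81 and 7.76 in WT_MR. KI_CD replicate 1 reached the WT_MR range while the other KI_CD arrays were more than 1.5 log2 units below it (-1.33 ± 0.43, limma adjusted p = 0.203). Srebf1, the lipogenic relative of Srebf2, lay in the opposite direction to the cholesterol genes, with levels of 9.96, 9.87 and 10.59 in KI_CD, against 9.26, 9.25 and 8.80 in WT_MR, and missed the threshold (1.03 ± 0.21, limma adjusted p = 0.0583).

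In all, 26 of 636 measured genes on the 42 lists passed (0.737% of all genes did). The remaining lists had 0 genes past the threshold by limma. With their number of genes, their median and the number at an unadjusted p under 0.05, which 13.1% of all genes reached, these were the nuclear envelope genes (22, 0.12 and 4), the cell cycle genes (29, 0.04 and 2) and the interferon-stimulated genes (23, -0.06 and 4). Next came the NF-kB targets (19, 0.04 and 0), the gluconeogenesis and insulin signalling genes (18, 0.12 and 1) and the fatty acid synthesis genes (24, -0.12 and 3). The growth hormone signalling genes (12, 0.05 and 0), the IGF binding proteins (8, 0.18 and 2) and the bile acid regulators (12, 0.04 and 2) followed. Last were the serpins (12, 0.18 and 6), the renin-angiotensin genes (8, 0.11 and 3) and the Cyp2b and Cyp2c genes (18, -0.10 and 5). Zmpste24, the protease that removes the farnesylated tail of prelamin A, had levels of 10.15, 10.04 and 10.24 in KI_CD, against 9.83, 9.61 and 9.95 in WT_MR, and its interval lay within 1.5-fold (0.15 to 0.54). Agt, angiotensinogen, likewise met the rule for the same level (12.89, 13.06 and 12.86 in KI_CD, against 12.66, 12.52 and 12.50 in WT_MR), with WT_CD at 12.14, 12.25 and 12.44. For both genes all KI_CD arrays nevertheless lay above all WT_MR arrays.

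**Figure D5:**
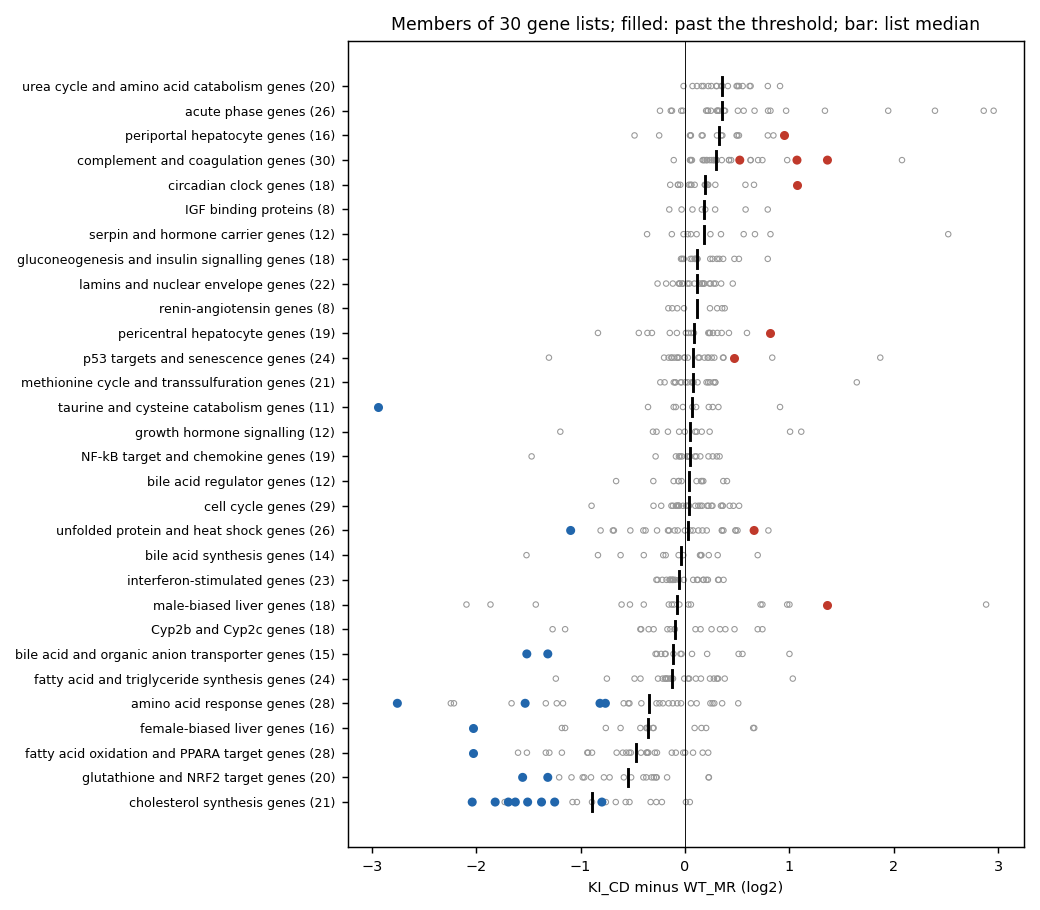
Difference between KI_CD and WT_MR (log2, horizontal axis) of each measured member of 30 pathway lists, ordered by the list's median, with filled points for genes past the threshold (red higher, blue lower), open points for the others and a bar at the median. Medians run from 0.35 for the urea cycle and amino acid catabolism genes to -0.89 for the cholesterol synthesis genes, the list with the most filled points (8 of 21).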

How the data were processed

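Liver RNA in 4 groups of 3 arrays (KI_CD, WT_MR, KI_MR and WT_CD) was measured on single-colour Affymetrix Mouse Gene 1.0 ST arrays. The deposited table holds 1 intensity per probe set and array, as whole numbers on a linear scale from 10 to 20042; the authors' normalization, background correction and genome build are not given in the sources used here, and the scale was read from the values. Trizol extraction was followed by an RNeasy clean-up, per the labels' protocols. The authors' intensities were taken to log2 with no further normalization and no pseudocount. The platform annotation gave 1 gene symbol for 21789 of 35512 probe sets, several for 1621 and none for 12102. Where a gene had several probe sets (999 genes), that with the highest mean was used, which left 19938 genes, of which 19856 matched a current gene record and 0 changed symbol.

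One limma fit (version 3.58.1, R 4.3.3) with a mean per group covered all 12 arrays, with moderated variances, two-sided tests and Benjamini-Hochberg adjustment over all genes. The test had 8 residual and 3.14 prior degrees of freedom, and the median SE was 0.10. No detection calls were used. A group mean below the lower quartile of gene levels on its arrays (5.49 to 5.67) was treated as a bound. The text names the 12 largest differences in each direction past the threshold (predicted loci left out), the most abundant genes at the same level, genes of interest in progeria and diet studies, and list members. The contrast, gene lists and naming rules were chosen with earlier results of these data known. Lists held 713 genes, 636 measured. The fit was tested on simulated data. Promoter windows came from RefSeq sequence of GRCm38.p6. Alternatives covered normalization, dim genes, probe set choice, variance model, arrays fitted, block and threshold.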

Additional observations from a re-analysis of the deposited data

Results flagged for a closer look

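Of the probe sets that carry no single gene symbol and stayed out of the comparison, 13723 were tested in the same way between KI_CD and WT_MR. Of these, 2 passed the threshold by limma, both higher in KI_CD, and 1118 had an unadjusted p under 0.05. They are counted here because they lie outside the genes compared, and no gene is named for them.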

How the results depend on the processing

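All 147 genes past the threshold kept the sign of their difference under each alternative in which they were tested, but their number moved with the processing. With no overlap between the compared groups in these genes, leaving out or weighting arrays could not change that sign. Median centring gave 91 genes (50 higher), a floor of 32 units 56 (39 higher, 17 lower), a fit of the 6 compared arrays alone 9 (4 higher, 5 lower), and an intensity trend with a robust prior 57 higher genes. Asking for a log2 difference of at least 1 left 40 (13 higher, 27 lower), and testing against a log2 difference of 0.5 left 3 (2 higher, 1 lower). Array weights gave 4804 (2322 higher, 2482 lower), with 1 array, WT_MR replicate 1, weighted at 16.7. The lowest weights were 0.291 for WT_MR replicate 3, 0.389 for KI_CD replicate 1 and 0.397 for WT_MR replicate 2. Weights computed gene by gene, an alternative chosen after seeing the data, gave 1789 (1103 higher, 686 lower). Quantile normalization gave 145 genes, of which 76 were higher (52.4%, against 61.2% in the main result), and 122 were shared. Leaving out 1 array gave 11 to 326 genes, 7 to 209 of them higher and 4 to 129 lower; the extremes came without WT_MR replicate 2, KI_CD replicate 3, KI_CD replicate 1 and WT_MR replicate 3. Of the 147 genes, 25 passed in at least 10 of these 12 fits and 54 in 6 or fewer. With the replicate block the count was 184 (120 higher, 64 lower), 127 of them shared; the deviations of same-numbered arrays correlated at 0.05, 0.09 and 0.14, so the numbers were not taken to pair the arrays, although each KI_CD array correlated best with its own number. Of the genes named in the text, median centring ended the calls of Acot3, C6, Glb1, Hsph1, Lgr5, Ugdh, Ephx1, Maoa, Ces1f, Ces2a, Hpgd, Spred1, Spred2, Nf1, Mios, Clu and Slc39a14, quantile normalization those of Acot3, Abcc3, Ugdh, Maoa and Mios, and averaging probe sets those of Crybg1 and Spred2 (adjusted p from limma of 0.0558 and 0.378). The intensity trend with a robust prior ended calls including those of Raet1d, Idi1, Msmo1, Prss8 and Abcc3. The floor of 32 units left 52 of the 147 calls and ended, among others, those of Raet1d, Slc43a1, Ces1g, Abcc4, Cox6a2 and Rab30. The fit of the 6 compared arrays kept only Csad, Aldh1l2, Adgrf1, Itih5, Sulf2, Blvrb, Ces1g, Cox6a2 and Crybg1. It ended the calls of Dnah11, Slc13a5, Cdc14a and Rbm3, which had passed whichever array was dropped. The number of genes at the same level was 2865 with a margin narrower than 1.5-fold and 17250 with no minimum level. Under array weights the difference of Igfbp1, 0.79 in the main result, reversed to -0.107, and the cause was not tested. Of the values for single genes and lists, 1218 stayed on their side of the threshold or within the spread, 228 lost their call, 14 gained one, 108 moved and 1 reversed.

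No detection calls were given, and 13.98% of gene values lay under 32 units, where differences are compressed. The smallest difference past the threshold was 0.31, and a difference that missed it is not shown to be absent. Genotype and diet cannot be told apart in this contrast, nor genotype and cage.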

Other observations

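KI_CD replicate 1 carried several high levels of genes not described above. Gpnmb, a glycoprotein of lipid-laden macrophages, had levels of 8.52, 5.46 and 5.32 in KI_CD, against 5.43, 5.46 and 5.25 in WT_MR. Acta2, smooth muscle actin and a marker of activated stellate cells, had levels of 10.39, 7.44 and 7.79 in KI_CD, against 7.44, 7.03 and 7.38 in WT_MR. Dmbt1, a mucin-like protein of bile duct epithelium, had levels of 10.93, 5.86 and 5.46 in KI_CD, against 5.56, 5.46 and 5.39 in WT_MR, and reached 11.89 on KI_MR replicate 3. In each of the 3 genes the first KI_CD array stood apart from the other KI_CD arrays, which lay within 1 log2 unit of the WT_MR range. None passed the threshold between KI_CD and WT_MR (limma adjusted p = 0.517, 0.471 and 0.654).

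Erythroid markers, measured by 2 genes, summed to between 524 and 697 units in KI_CD, between 563 and 732 in WT_MR and between 1160 and 1385 in WT_CD. Muscle markers reached 12575 units on an array of KI_MR, against at most 744 in KI_CD and 799 in WT_MR.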
